A study of Mus musculus with 14 samples.

Results

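ATF4 is a transcription factor whose protein is made when the translation initiation factor eIF2 is phosphorylated, as happens when cells run short of amino acids or fold proteins poorly. It pairs with C/EBP proteins on composite promoter elements and switches on genes that import amino acids, make serine, glycine, asparagine, proline and cysteine, and feed folate-bound carbon units into nucleotide synthesis. Its activity is set largely by translation of its mRNA, so the level of Atf4 transcript is only part of that control. The genes described here are a set of 33 named for this response and for serine and amino acid supply, listed by gene name, with earlier results of these data known when the list was made. An array probe set paired with exactly 1 gene symbol was found for 32 of the 33, out of 19938 genes with such a probe set, and each of the 32 had 1 probe set. The expression of Pycr1, which completes proline synthesis, was not analysed here, and it enters only the promoter search.

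The 14 samples were of 4T1, a mouse mammary tumor cell line. The 5 groups were 4T1 cells with CNOT7 over-expression (n = 3) and vector control cells (n = 3), then cells with the Cnot7 hairpins sh74 (n = 2) or sh75 (n = 3) and cells with the shScramble hairpin (n = 3). All groups carried a lentiviral vector. Per the study's methods the first pair was selected with blasticidin, and the 3 hairpin groups with puromycin. The over-expressed protein was FLAG-tagged human CNOT7 behind a mouse Pol2 promoter. Its control carried a non-coding stuffer fragment in a different lentiviral backbone, so that pair differs in more than CNOT7. CNOT7 is a deadenylase of the CCR4-NOT complex, which shortens mRNA poly(A) tails, and the comparisons ask which transcripts depend on its level. RNA was measured on Affymetrix Mouse Gene 1.0 ST arrays and each value is a normalized log2 intensity, so that a difference of 1 is a 2-fold difference. The design text calls the replicates biological, and the labels do not say whether they were separate infections.

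The 21-base antisense strands of both Cnot7 hairpins are shown because they define the knockdown groups, with bases 2 to 8, the seed, in capitals:
sh74: tAAGTACTgcagaatagaagg
sh75: aACAAGTCtacattacaccgc
The seeds differ, and Cnot7 itself changed by -2.29 on the log2 scale in sh75 cells (SE 0.26, limma adjusted p = 0.00911) and by -1.31 in sh74 cells (SE 0.29, adjusted p = 0.279), both against shScramble cells. The mouse Cnot7 probe set did not differ with over-expression of the human protein (change 0.00, SE 0.26). Array medians lay between 6.31 and 6.38, and no 2 arrays held identical values. All 7 epithelial markers were above the limit for dim probe sets, 4.89, which is the 90th percentile of 1035 olfactory receptor probe sets, and so were 3 of 4 mesenchymal, 2 of 5 immune, 2 of 3 endothelial, 2 of 4 fibroblast and 2 of 2 adipocyte markers. Of the immune markers, Cd68 (mean 7.96, from 6.77 to 9.01) and Cd3e (mean 5.88) were above that limit and Ptprc, Adgre1 and Itgam below it. Esrp1, a splicing factor of epithelial cells, split the libraries within 4 of the 5 groups: it was between 5.21 and 6.50 in 5 libraries (CNOT7 over-expression replicate 3, sh74 replicate 1, sh75 replicates 2 and 3 and shScramble replicate 3) and between 9.73 and 11.01 in the other 9. These 5 libraries had Vim, a mesenchymal filament gene, between 12.72 and 13.06, and the other 9 had it between 10.08 and 12.71. In bulk RNA a change in the share of cells of such a state and a change per cell cannot be told apart. The counts of lower members and the main changes below are therefore also given without them, a choice made after the data were seen. In that fit sh74 replicate 2 and sh75 replicate 1 stand alone in their groups, beside shScramble replicates 1 and 2, with 4 residual degrees of freedom. Each hairpin value given without these libraries therefore rests on 1 library of that hairpin.

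No member of the set passed an adjusted p of 0.05 in any comparison. All 32 measured members had a mean above the limit for dim probe sets. With limma and Benjamini-Hochberg adjustment over 21789 probe sets, 0 of 32 members were called for CNOT7 over-expression against vector control, where 0% of all probe sets were called. The count was also 0 of 32 for sh74 against shScramble (0.00918% of all probe sets), for sh75 against shScramble (0.0918%) and for the mean of both hairpins against shScramble (0.0184%). It was 0 of 32 for sh74 against sh75 (0.174%), for the over-expression change minus the mean hairpin change (0%) and for vector control against shScramble (0%). Without the 5 libraries of low Esrp1 no member was called in any of the 7 comparisons either.

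At an unadjusted p under 0.05 there were a few members per comparison. In sh75 cells 6 of 32 members (18.8%) were below that value, 3 lower and 3 higher than in shScramble cells, against 8.26% of all probe sets. In sh74 cells Phgdh alone was (7.33% of all probe sets), and with CNOT7 over-expression no member was (2.58%). The corresponding numbers were 5 members for the mean of both hairpins (7.3%), 4 for sh74 against sh75 (8.93%), 1 for the over-expression change minus the hairpin change (3.49%) and 1 for vector control against shScramble (3.7%). Without the libraries of low Esrp1 each hairpin group holds 1 library (sh74 replicate 2 and sh75 replicate 1), so counts at this p are not given for that fit. The sh75 count was 3 without sh75 replicate 2, and 2 without shScramble replicate 1. The sh74 count was 4 without sh74 replicate 2 and 2 without shScramble replicate 2, and with over-expression 1 member was below that value once CNOT7 over-expression replicate 3 was left out, and 2 were once vector control replicate 3 was. For the mean of both hairpins it was 11 without sh74 replicate 2, and 2 without sh74 replicate 1 or shScramble replicate 1.

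The direction over the whole set was slight. In sh74 cells 22 of 32 members (68.8%) had a lower mean than in shScramble cells, with a median change of -0.15, against 48.7% of all probe sets. In sh75 cells 20 of 32 (62.5%) were lower with a median of -0.08 (50.2% of all probe sets), and for the mean of both hairpins 20 were lower with a median of -0.06 (48.8%). With CNOT7 over-expression 20 of 32 were lower than in vector control cells with a median of -0.06 (46.1%). The median over all probe sets was 0.00 in both hairpin comparisons. The over-expression count was 9 of 32 without CNOT7 over-expression replicate 3, and the sh74 median was -0.000405 without sh74 replicate 1. Both of these are among the libraries of low Esrp1, and without all 5 of those the lower members numbered 18 in sh74 cells, 19 in sh75 cells and 9 with over-expression. Without shScramble replicate 1 the sh75 median was 0.0014 with 16 members lower, and the median for the mean of both hairpins was 0.02 with 15 lower. The sh74 and sh75 changes share the shScramble samples, so the sign they have in common is no separate evidence.

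In size the member changes under both hairpins were larger than is typical of the arrays. The median absolute change was 0.254 in sh75 cells and 0.209 in sh74 cells, beside 0.107 and 0.112 for the 16101 probe sets above the dim limit. With CNOT7 over-expression it was 0.083 beside 0.074. The members also varied more between replicates: their median SD within groups was 0.273, against 0.161 over those 16101 probe sets, and 25 of the 32 were above that background median.

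**Figure D1:**
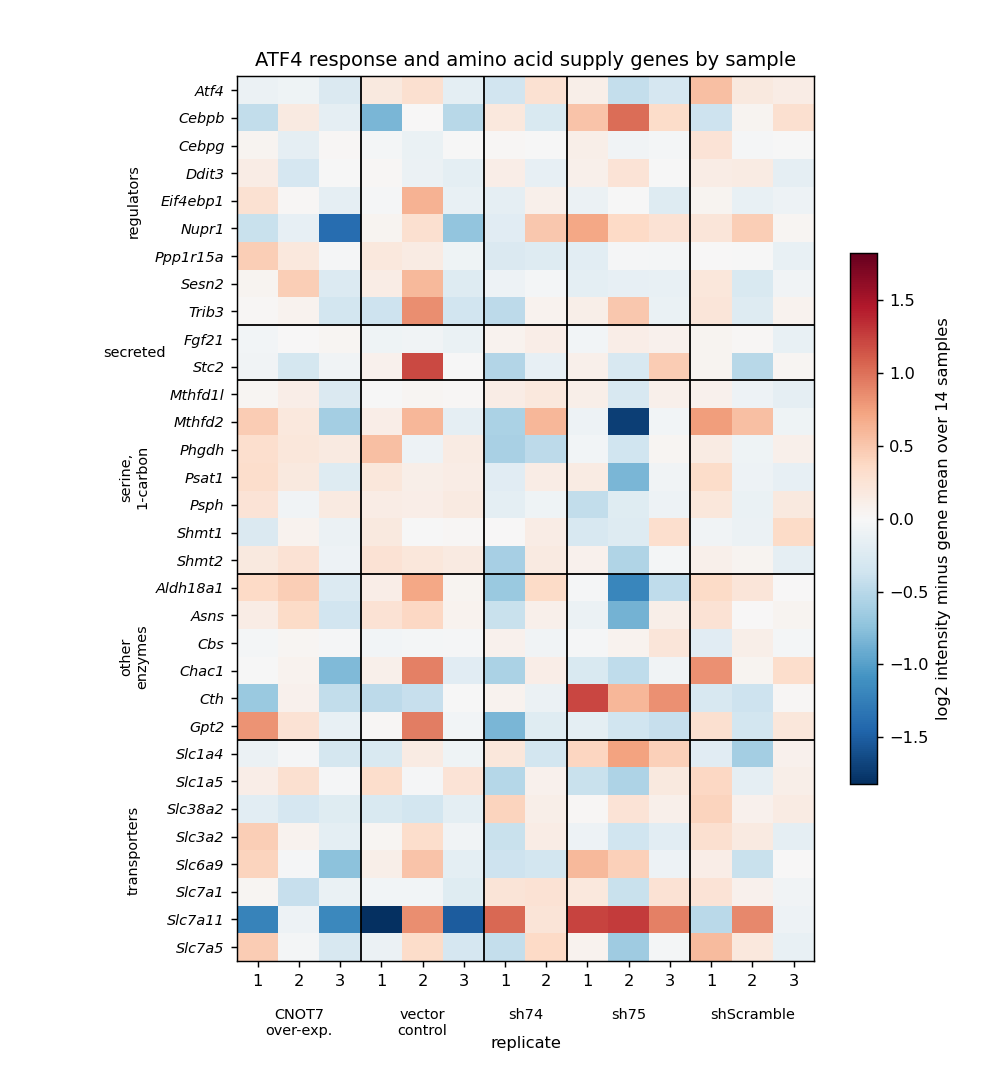
Each of the 32 measured genes (rows, grouped by role) in each of the 14 samples (columns, by group and replicate), as log2 intensity minus the gene's mean over all samples, red above and blue below it. Slc7a11 has the widest range (3.10), and sh75 replicate 2 is the lowest sample for 8 of the 32 genes.

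Single libraries carried many of the extremes. sh75 replicate 2 was the lowest of all 14 samples for 8 of 32 members, where it was lowest for 9.96% of probe sets above the dim limit, and sh74 replicate 1 was lowest for 7 (12.9%). At the other end, vector control replicate 2 was highest for 8 members (6.96%) and shScramble replicate 1 for 6 (8.13%). sh75 replicate 2 was also the highest sample for 5 members (9.48%), so that library held members at both ends.

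A C/EBP-ATF response element was searched for in the promoters, 250 bases before to 50 after each RefSeq start site on mouse build GRCm38.p6, because it is the sequence through which ATF4 dimers are known to bind. The core TGATGNAAN, on either strand, was in 8 of the 29 members with a promoter in the table (27.6%) and in 1215 of 27025 genes (4.5%). The stricter TGATGCAAT, whose matches are all matches of the core, was in 3 of 29 members (10.3%) and in 60 genes (0.222%). The members were listed for the ATF4 response, so a higher share among them is built into the choice and is no independent result. The matching members were Trib3, Chac1, Asns, Pycr1, Slc7a11, Slc1a4, Fgf21 and Nupr1, with 2 elements in Slc7a11. Slc7a5, Slc1a5, Cth and Eif4ebp1 had no entry. The elements are in capitals below, each with 10 flanking bases, written along the strand of the gene:
Asns: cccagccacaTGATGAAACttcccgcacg
Chac1: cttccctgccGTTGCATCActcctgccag
Trib3: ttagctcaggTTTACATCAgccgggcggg
Pycr1: gccctgtgtaTGATGCAATgcacaaggct
Fgf21: agacccccccATTGCATCAtccgtccagg
Nupr1: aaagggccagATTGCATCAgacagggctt
Slc1a4: tgcctcctgcGTTGCATCAtctccagcct
Slc7a11: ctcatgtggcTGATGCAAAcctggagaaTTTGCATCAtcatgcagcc
The Asns element is at chr6:7693224-7693232 (minus strand gene) and starts at position -23 from the start site. The Slc7a11 window is chr3:50443643-50443689 (minus strand gene), with elements starting at -66 and -48. The Slc1a4 element, chr11:20332710-20332718 (minus strand gene), spans the start site, and the Chac1 element is at chr2:119351048-119351056 (plus strand gene), starting at -194. A match to these letters is a description of the sequence and was not tested for binding.

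**Figure D2:**
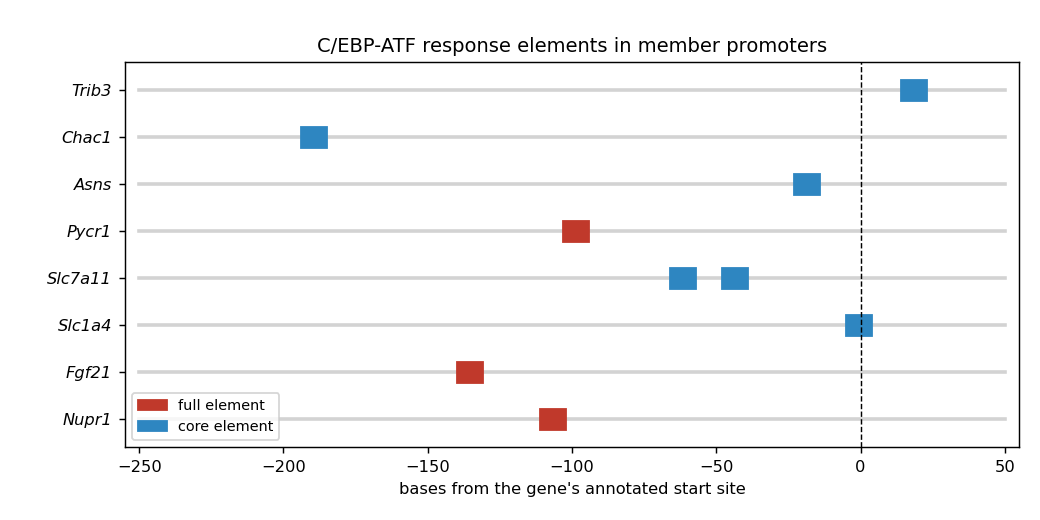
Positions of the 9-base elements in the 8 matching promoters, in bases from the annotated start site (dashed line), over the 250 bases before it and 50 after. Red elements match the stricter sequence (3 genes) and blue ones only the core. Slc7a11 is the gene with 2.

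The regulators come first. Atf4 measured 8.65 and 9.29 in sh74 cells and 9.11, 8.57 and 8.70 in sh75 cells, against 9.55, 9.18 and 9.14 in shScramble cells. It measured 8.90, 8.92 and 8.74 with CNOT7 over-expression and 9.18, 9.29 and 8.82 in vector control cells. All 3 sh75 values lay below all 3 shScramble values, whereas the sh74 samples lay on both sides and the over-expression values overlapped those of vector control. The change was -0.50 in sh75 cells (SE 0.19, adjusted p = 0.527), -0.32 in sh74 cells (SE 0.22, adjusted p = 0.823) and -0.24 with over-expression (SE 0.19, adjusted p = 1). Without the libraries of low Esrp1 the change was -0.25 in sh75 cells, -0.08 in sh74 cells and -0.19 with over-expression. In ascending order of group means Atf4 was 8.80 ± 0.28 in sh75 (SD, n = 3), 8.85 ± 0.10 in CNOT7 over-expression (n = 3), 8.97 ± 0.45 in sh74 (n = 2), 9.10 ± 0.25 in vector control (n = 3) and 9.29 ± 0.23 in shScramble cells (n = 3), and no step between neighbours was larger than the spread of the replicates.

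Cebpb encodes C/EBP beta, a dimer partner of ATF4 on the composite element. It measured 8.999, 9.50 and 8.82 in sh75 cells, against 8.11, 8.53 and 8.78 in shScramble cells, without overlap. The sh74 values, 8.68 and 8.21, lay within the shScramble range. The sh75 change was 0.63 (SE 0.26, adjusted p = 0.57) and that of sh74 was -0.02 (SE 0.30), with a difference between the hairpins of -0.66 (SE 0.30, adjusted p = 0.554). Cebpb measured 8.04, 8.66 and 8.33 with CNOT7 over-expression and 7.65, 8.50 and 7.99 in vector control cells, a change of 0.30 (SE 0.26, adjusted p = 1). Cebpg, the gene of a further C/EBP partner, was nearly level over all samples, between 7.71 and 8.12.

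Nupr1, a small stress-induced chromatin protein gene, had among the widest ranges of the set. It measured 10.19, 10.44 and 9.20 with CNOT7 over-expression and 10.64, 10.89 and 9.88 in vector control cells, a change of -0.53 (SE 0.33, adjusted p = 1) with overlapping groups. It measured 10.39 and 11.08 in sh74 cells and 11.30, 10.96 and 10.86 in sh75 cells, against 10.82, 11.04 and 10.64 in shScramble cells. The lowest Nupr1 values of all samples were those of the over-expression and vector control replicates 3, and the over-expression change was -0.15 without the libraries of low Esrp1.

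The feedback genes showed little. Ppp1r15a encodes the stress-induced subunit that steers a phosphatase to eIF2. It measured 6.71, 6.46 and 6.24 with CNOT7 over-expression and 6.45, 6.41 and 6.18 in vector control cells, a change of 0.12 (SE 0.11, adjusted p = 1) that was 0.24 without the libraries of low Esrp1. It measured 6.005 and 6.02 in sh74 cells, both below the 6.27, 6.25 and 6.13 of shScramble cells, a change of -0.20 (SE 0.13, adjusted p = 0.798). Of the other regulators, Ddit3, which encodes the pro-apoptotic partner CHOP, lay between 6.78 and 7.32. Trib3, a pseudokinase gene that restrains ATF4, lay between 6.97 and 8.30, Sesn2, a leucine sensor of the mTORC1 pathway, between 6.87 and 7.73, and Eif4ebp1, a translational repressor gene, between 9.38 and 10.25. For each of these last 3 the highest sample was vector control replicate 2. In their sh74, sh75 and over-expression comparisons these 4 genes changed by between -0.22 and 0.14, with adjusted p of at least 0.931.

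Both secreted factors were low or variable. Stc2, the gene of the glycoprotein stanniocalcin 2, measured 6.26, 5.998 and 6.25 with CNOT7 over-expression, against 6.39, 7.52 and 6.30 in vector control cells. The groups did not overlap, but vector control replicate 2 stood far above its 2 fellow replicates. The change was -0.57 (SE 0.30, adjusted p = 1). Fgf21, a fasting hormone gene, was close to the dim limit of 4.89 in every sample, at 4.92, 4.98 and 5.01 with CNOT7 over-expression and 4.90, 4.91 and 4.85 in vector control cells. It measured 5.03 and 5.096 in sh74 cells, against 5.02, 4.995 and 4.84 in shScramble cells, also without overlap, and the changes were 0.08 (SE 0.06) and 0.11 (SE 0.07). In the over-expression comparison Stc2 was the 1 member wholly lower (3.42% of all probe sets) and Fgf21 the 1 wholly higher (4.3%).

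**Figure D3:**
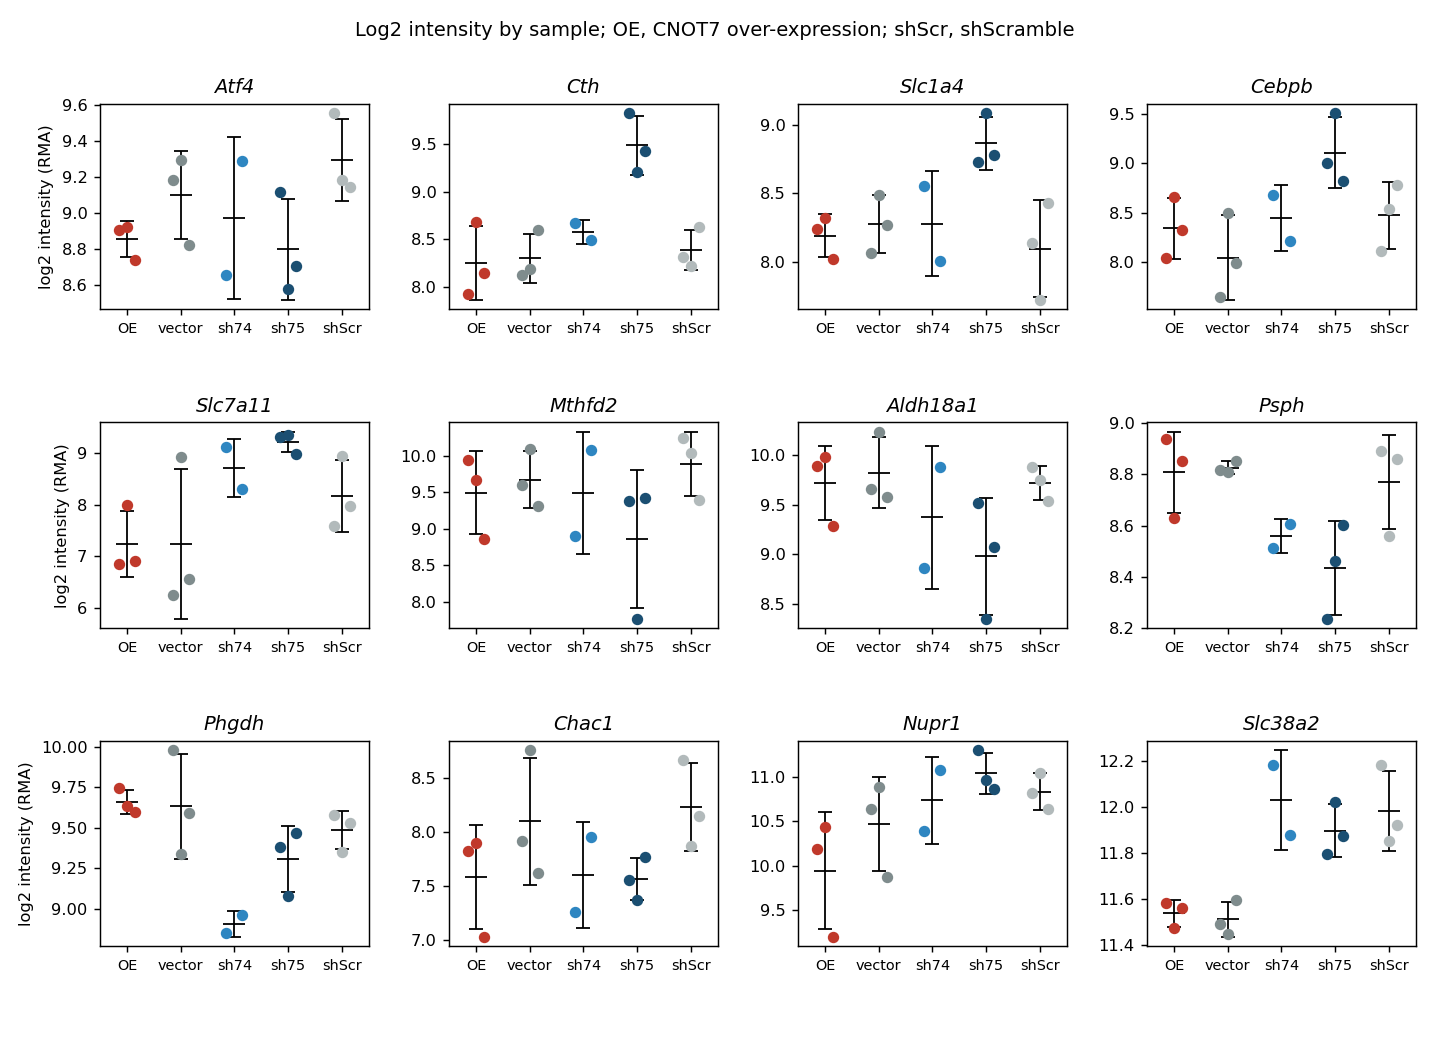
Log2 intensity of 12 of the genes in every sample (points), with the group mean and SD (bars), from left to right CNOT7 over-expression, vector control, sh74, sh75 and shScramble. Each panel has its own axis, which does not start at 0. The 3 sh75 points of Cth (9.21 to 9.82) and Slc1a4 (8.73 to 9.08) stand above all shScramble points.

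Cth had the largest sh75 change in the set. It encodes cystathionine gamma-lyase, which releases cysteine from cystathionine at the end of the transsulfuration pathway. Cth measured 9.82, 9.21 and 9.43 in sh75 cells, against 8.32, 8.23 and 8.63 in shScramble cells. All 3 sh75 values were above those of the other 11 samples, since sh74 cells had 8.67 and 8.49, CNOT7 over-expression 7.92, 8.68 and 8.15, and vector control cells 8.12, 8.19 and 8.60. The sh75 change was 1.09 (SE 0.21), or 2.14-fold, with an adjusted p of 0.15 that ranged between 0.0856 and 0.596 over the alternatives. The sh74 change was 0.19 (SE 0.24, adjusted p = 0.924), and the difference of sh74 from sh75 was -0.91 (SE 0.24, adjusted p = 0.233). Without the libraries of low Esrp1 the sh75 change was 1.55, which sets sh75 replicate 1 alone (9.82) against shScramble replicates 1 and 2 (8.32 and 8.23). The over-expression change was -0.05 (SE 0.21), and its difference from the mean hairpin change was -0.69 (SE 0.29, adjusted p = 1). Cbs, the gene of the preceding enzyme of that pathway, lay between 6.15 and 6.58 in all samples, and its sh75 change was 0.14 (SE 0.08, adjusted p = 0.709).

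The serine synthesis enzymes lay mostly lower under the hairpins. Phgdh, whose product takes the first step from glycolysis to serine, measured 8.85 and 8.96 in sh74 cells, against 9.58, 9.35 and 9.53 in shScramble cells. Both sh74 values were the lowest of all 14 samples. The change was -0.58 (SE 0.17, adjusted p = 0.462), and it was -0.51 without the libraries of low Esrp1. In sh75 cells Phgdh measured 9.38, 9.08 and 9.47, a change of -0.18 (SE 0.15, adjusted p = 0.812), and sh74 differed from sh75 by -0.40 (SE 0.17, adjusted p = 0.502). With CNOT7 over-expression it measured 9.75, 9.63 and 9.60, against 9.98, 9.33 and 9.59 in vector control cells.

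Psph encodes the phosphatase of the last step to serine. It measured 8.24, 8.46 and 8.60 in sh75 cells and 8.51 and 8.60 in sh74 cells, against 8.89, 8.56 and 8.86 in shScramble cells. The hairpin values lay low, although the highest of each group was above the lowest shScramble value. The change was -0.34 in sh75 cells (SE 0.11, adjusted p = 0.45) and -0.21 in sh74 cells (SE 0.13, adjusted p = 0.79). Psat1, the gene of the middle enzyme, changed by -0.28 in sh75 cells (SE 0.24) and -0.07 in sh74 cells (SE 0.26), and its lowest sample was sh75 replicate 2 at 10.09.

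Mthfd2 encodes the mitochondrial dehydrogenase that oxidizes methylene-folate, and its range over samples, 2.47, was second to that of Slc7a11. It measured 9.38, 7.77 and 9.42 in sh75 cells and 8.90 and 10.08 in sh74 cells, against 10.24, 10.03 and 9.40 in shScramble cells. The value of 7.77, in sh75 replicate 2, stood far below the rest. The change was -1.03 in sh75 cells (SE 0.48, adjusted p = 0.618) and -0.40 in sh74 cells (SE 0.54, adjusted p = 0.927), or -0.75 and -0.06 without the libraries of low Esrp1. With CNOT7 over-expression Mthfd2 measured 9.95, 9.67 and 8.86, and in vector control cells 9.60, 10.09 and 9.31, a change of -0.18 (SE 0.48).

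Mthfd1l, which makes formate for export from mitochondria, went the other way in sh74 cells. It measured 10.09 and 10.15 there, against 10.03, 9.87 and 9.79 in shScramble cells, without overlap and with a change of 0.22 (SE 0.13, adjusted p = 0.79). Shmt1 and Shmt2, which encode the cytosolic and mitochondrial enzymes that split serine into glycine, changed by -0.13 (SE 0.17) and -0.16 (SE 0.20) in sh75 cells. Counted by sign, 6 of the 7 serine and one-carbon genes were lower in sh75 cells (median -0.18, against 50.2% of all probe sets lower) and 5 of 7 in sh74 cells (median -0.21, against 48.7%). In each comparison 1 of the 7 was at an unadjusted p under 0.05, beside 8.26% (sh75) and 7.33% (sh74) of all probe sets. The mean deviation of these 7 genes from their means over all samples was -0.60 in sh75 replicate 2 and -0.29 in sh74 replicate 1, which are both libraries of low Esrp1, as are sh75 replicate 3 and shScramble replicate 3. It was -0.08 and 0.03 in sh75 replicates 1 and 3 and 0.10 in sh74 replicate 2, beside 0.22, 0.02 and 0.01 in the shScramble samples.

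Aldh18a1 encodes the enzyme that starts proline synthesis from glutamate. It measured 9.52, 8.35 and 9.07 in sh75 cells, against 9.88, 9.75 and 9.54 in shScramble cells. The groups did not overlap, but sh75 replicate 1 lay just under the lowest shScramble value. The change was -0.74 (SE 0.33, adjusted p = 0.602) and it was -0.30 without the libraries of low Esrp1. In sh74 cells it measured 8.86 and 9.88, so that replicate 1 lay far below the shScramble samples and replicate 2 at their upper end.

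Chac1 encodes an enzyme that degrades glutathione, and its mRNA is a frequent readout of ATF4 activity. It measured 7.26 and 7.95 in sh74 cells and 7.55, 7.37 and 7.77 in sh75 cells, against 8.66, 7.87 and 8.15 in shScramble cells. The sh75 values lay wholly below the shScramble values, with a change of -0.67 (SE 0.33, adjusted p = 0.644), and the sh74 change was -0.62 (SE 0.37, adjusted p = 0.789). It measured 7.82, 7.89 and 7.03 with CNOT7 over-expression, against 7.91, 8.75 and 7.62 in vector control cells, a change of -0.52 (SE 0.33, adjusted p = 1). Without the libraries of low Esrp1 the sh74 change was -0.32 and the over-expression change -0.24.

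Gpt2, the gene of the mitochondrial enzyme that makes alanine, measured 6.57 and 7.18 in sh74 cells, against 7.69, 7.07 and 7.61 in shScramble cells. The change was -0.58 (SE 0.34, adjusted p = 0.784) with overlapping groups, and it was -0.20 without the libraries of low Esrp1. Asns, which encodes asparagine synthetase, changed by -0.27 in sh74 cells (SE 0.27) and -0.40 in sh75 cells (SE 0.25), and its lowest sample was sh75 replicate 2 at 10.35.

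Among the transporters, Slc1a4 had the smallest adjusted p. It encodes the neutral amino acid carrier ASCT1, which moves serine. Slc1a4 measured 8.73, 9.08 and 8.78 in sh75 cells, against 8.14, 7.72 and 8.42 in shScramble cells, and the groups did not overlap. The sh75 values were above those of all the other groups, with 8.55 and 8.005 in sh74 cells, 8.24, 8.32 and 8.02 with CNOT7 over-expression and 8.06, 8.49 and 8.27 in vector control cells. The sh75 change was 0.77 (SE 0.20, adjusted p = 0.297, between 0.132 and 0.721 over the alternatives), or 1.71-fold, and it was 0.80 without the libraries of low Esrp1. The sh74 change was 0.18 (SE 0.22), and sh74 differed from sh75 by -0.59 (SE 0.22, adjusted p = 0.45).

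Slc7a11 encodes xCT, the exchanger that imports cystine for glutathione synthesis, and is the promoter above with 2 elements. It measured 9.31, 9.36 and 8.997 in sh75 cells and 9.12 and 8.32 in sh74 cells, against 7.58, 8.95 and 7.98 in shScramble cells. It measured 6.86, 7.99 and 6.90 with CNOT7 over-expression and 6.26, 8.92 and 6.56 in vector control cells. The sh75 values were tight and above all shScramble values, while both control groups spread widely, each with its replicate 2 high. The change was 1.05 in sh75 cells (SE 0.62, adjusted p = 0.708) and 0.55 in sh74 cells (SE 0.70, adjusted p = 0.924). It was 0.00 with over-expression, with the same SE of 0.62. Without the libraries of low Esrp1 these changes were 1.05, 0.05 and 0.17.

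Slc38a2, the gene of the amino acid-regulated carrier SNAT2, was chosen after its values were seen. It is given because it was lower in the over-expression and vector control samples than in the sh74, sh75 and shScramble samples. The cause was not tested. It measured 11.58, 11.47 and 11.56 with CNOT7 over-expression and 11.49, 11.45 and 11.60 in vector control cells. It measured 12.18 and 11.88 in sh74 cells, 11.80, 12.02 and 11.88 in sh75 cells, and 12.18, 11.85 and 11.92 in shScramble cells. All 6 samples of the first pair lay below all 8 hairpin samples, a separation not counted over all probe sets. In vector control against shScramble alone, Slc38a2 was the 1 member wholly lower and Shmt2 the 1 wholly higher (3.12% of members each). Of 21789 probe sets 1105 were wholly lower there and 1018 wholly higher. The difference of vector control from shScramble was -0.47 (SE 0.10, adjusted p = 1). Against vector control the change was 0.03 with over-expression, and against shScramble it was 0.05 in sh74 and -0.09 in sh75 cells. The vectors and the selection drugs differ together between the first pair and the hairpin groups, and cannot be told apart.

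Slc7a1, the cationic amino acid transporter CAT1, measured 10.45 and 10.48 in sh74 cells, against 10.47, 10.29 and 10.16 in shScramble cells, a change of 0.16 (SE 0.19, adjusted p = 0.915) that was 0.10 without the libraries of low Esrp1. Slc7a5 and Slc3a2, which encode both chains of the leucine transporter LAT1, changed by -0.42 (SE 0.29) and -0.31 (SE 0.19) in sh75 cells and by -0.24 (SE 0.32) and -0.23 (SE 0.21) in sh74 cells. Slc1a5, a glutamine carrier gene, changed by -0.37 in sh75 cells (SE 0.21) and -0.33 in sh74 cells (SE 0.24). Slc6a9, which encodes the glycine carrier GLYT1, changed by 0.41 in sh75 cells (SE 0.29) and -0.26 in sh74 cells (SE 0.32). By sign, 5 of 8 transporters were lower in sh75 cells and 4 of 8 in sh74 cells.

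In sh75 cells 3 members, Atf4, Aldh18a1 and Chac1, lay wholly below the shScramble samples (6.76% of all probe sets), and 4, Cth, Slc1a4, Cebpb and Slc7a11, wholly above them (6.71%). In sh74 cells Phgdh and Ppp1r15a lay wholly below (10.6%), and Mthfd1l and Fgf21 wholly above (11.4%). As shares of the 32 members these are 9.38% and 12.5% for sh75, and 6.25% each for sh74, the sh74 shares being below those of all probe sets.

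**Figure D4:**
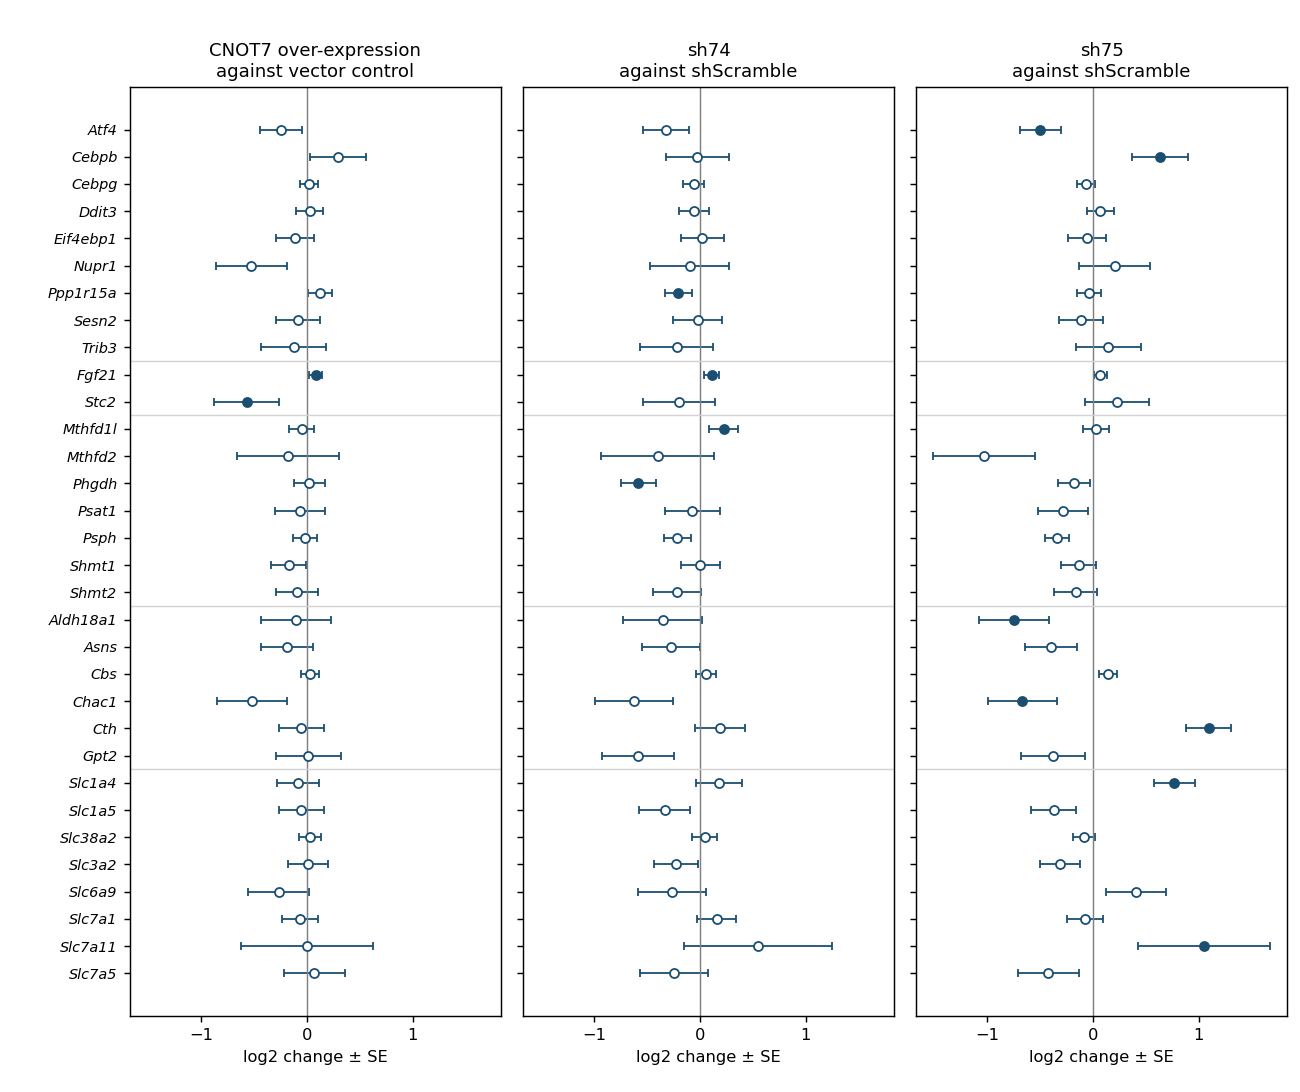
Log2 change with its standard error for each of the 32 genes in 3 comparisons, in the row order of the heat map. Filled points are genes whose groups do not overlap (2 genes with CNOT7 over-expression, 4 with sh74, 7 with sh75). Cth (1.09) and Slc7a11 (1.05) are the highest points under sh75 and Mthfd2 (-1.03) the lowest.

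Some sh75 and shScramble sample titles share a number whose meaning the labels do not give, and the sh75 changes were also taken within number 4 (1 sample each) and number 5 (2 sh75 samples and 1 shScramble sample). Cth was higher by 1.59 within number 4 and by 0.69 within number 5. Slc1a4 was higher by 1.01 and 0.51, and Cebpb by 0.47 and 0.39. Slc7a11 differed by 0.36 and 1.19. For Atf4 the differences were -0.07 within number 4 and -0.51 within number 5, for Chac1 -0.32 and -0.58, for Psph -0.32 and -0.33, for Mthfd2 -0.65 and -0.80, and for Aldh18a1 -0.24 and -0.83. Other members differed in sign between the numbers, among them Phgdh (0.03 within number 4 and -0.26 within number 5), Psat1 (0.24 and -0.30) and Gpt2 (0.15 and -0.60). Of the 32 members, 19 had the same sign within both numbers as in the pooled comparison, and 15 were lower within number 4 and 18 within number 5. The sh75 and shScramble samples of number 5 all had low Esrp1 and those of number 4 high Esrp1, so number and Esrp1 level cannot be told apart here.

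Genes around the set were read from lists of neighbours in the same biology. No gene of these lists passed an adjusted p of 0.05 in the sh74, sh75 or over-expression comparison. Of 18 cytosolic aminoacyl-tRNA synthetases measured, which load amino acids on their tRNAs, 16 were lower in sh74 cells (median -0.15) and 17 in sh75 cells (median -0.18), and 11 with CNOT7 over-expression (median -0.03). Of all probe sets 48.7%, 50.2% and 46.1% were lower in these comparisons. Both hairpin changes share the shScramble samples, and the lists were not refitted with samples left out. Cars (-0.35, SE 0.13, adjusted p = 0.52) and Kars (-0.43, SE 0.19, adjusted p = 0.597), the cysteine and lysine enzymes, were the 2 at an unadjusted p under 0.05 in sh75 cells. Of all probe sets 8.26% were below that value there. Of 15 genes of the eIF2 kinases and machinery, 12 were lower in sh74 cells (median -0.15) and 9 in sh75 cells (median -0.07). The smallest adjusted p of the lists, 0.119, was that of Ppp1r15b in sh75 cells, the constitutive partner of Ppp1r15a in removing phosphate from eIF2, with a change of -0.87 (SE 0.16).

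In the remaining lists both signs were frequent. Of 15 other ATF4 partners and targets, 9 were lower in sh74 cells and 7 in sh75 cells, with Ero1a, which makes disulfide bonds in the endoplasmic reticulum, at -0.87 in sh74 cells (SE 0.27, adjusted p = 0.484). Of 19 other folate and one-carbon genes, 8 were lower in sh74 cells and 10 in sh75 cells. Of 13 other enzymes of non-essential amino acids, 8 and 7 were lower. Pycrl, a proline synthesis gene related to Pycr1, changed by -0.55 in sh74 cells (SE 0.13, adjusted p = 0.326) and -0.26 in sh75 cells (SE 0.12, adjusted p = 0.601), and Arg2, mitochondrial arginase, by 1.08 in sh75 cells (SE 0.41, adjusted p = 0.514). Of 23 other amino acid transporters, 13 were lower in sh74 cells and 10 in sh75 cells. There Slc36a1 (0.50, SE 0.16, adjusted p = 0.408), Slc7a7 (0.76, SE 0.32, adjusted p = 0.576) and Slc43a2 (0.70, SE 0.31, adjusted p = 0.597) were higher at an unadjusted p under 0.05. In sh75 cells 8.26% of all probe sets were below that value.

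**Figure D5:**
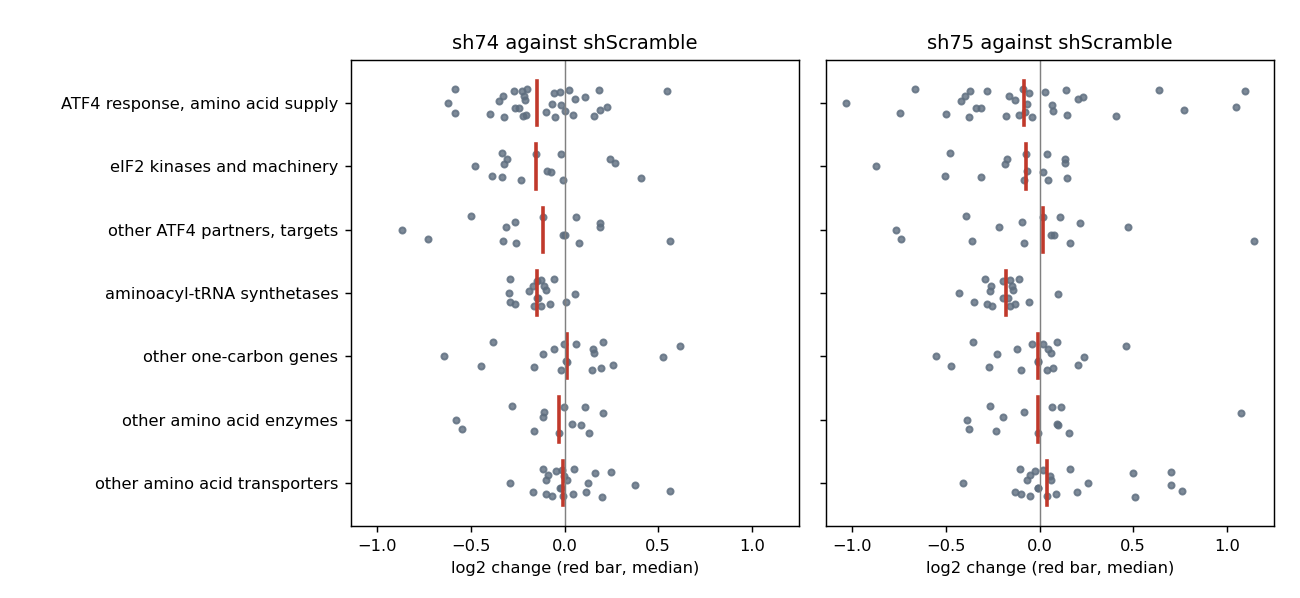
Log2 change of every measured gene (points) of the 32-gene set and of 6 lists of related genes, with each list's median (red bar), in sh74 cells (left) and sh75 cells (right), both against shScramble. The aminoacyl-tRNA synthetases have medians of -0.15 and -0.18. The 23 other transporters have medians of -0.01 and 0.04, and several of them are below the dim limit.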

How the data were processed

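RNA of 14 4T1 cultures was hybridized to Affymetrix Mouse Gene 1.0 ST arrays. The deposited values are log2 intensities that the authors made with RMA (background correction, quantile normalization and probe summary), and the submitters' processing notes name oligo (versions not given in the sources used here). Quantile normalization gives all arrays nearly 1 distribution, so a change shared by most genes would not be seen. Of 35556 probe sets, 21789 had exactly 1 symbol in GEO's platform annotation and were tested, 1621 had several and 12146 had none. The 21789 were checked by Entrez ID against RefSeq (21698 matched, 0 symbols updated). Groups came from the treatment label and the title. The design text states 3 biological replicates per hairpin, and 2 samples were used for sh74.

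One limma model (limma 3.58.1, R 4.3.3) was fitted over 5 groups with 9 residual degrees of freedom, with two-sided moderated tests and Benjamini-Hochberg adjustment over all 21789 probe sets. The script was tested on simulated data. A gene was represented by its probe set of highest mean. The study's methods name a t-test, which was run as an alternative. The other alternatives were each comparison on its own groups, eBayes with trend and robust, equal array medians, dim probe sets left out, the mean of a gene's probe sets, array weights, the title number as a block and each sample left out. Genes given sample by sample were Atf4, the 3 members of smallest p in each direction for the over-expression, sh74 and sh75 comparisons, and the 3 of widest range. Members and lists were chosen with earlier results of these data known. Promoters came from RefSeq (GRCm38.p6) and matched 29 of 33 members. Hairpin sequences came from the study's primer list. The number of arrays limits precision.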

Additional observations from a re-analysis of the deposited data

How the results depend on the processing

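Under 23 alternatives (22 where the title number could not be used) no member passed an adjusted p of 0.05 in any comparison, the smallest being 0.0856 for Cth in sh75 cells. Some of these fits left 1 library in a hairpin group and had little power to call a member. Of the changes of named genes under these alternatives, 614 kept their sign and their side of the threshold and 11 changed sign. Many of these alternatives could not alter a sign, so the 614 is no measure of robustness. Each measured member has 1 probe set, several settings alter only the spread or the adjustment, and samples outside a comparison do not enter its means. Leaving out 1 sample at a time, the members lower with CNOT7 over-expression numbered between 9 (without CNOT7 over-expression replicate 3) and 25. They also numbered 9 when the 5 libraries of low Esrp1 were left out. The median change in sh74 cells lay between -0.25 and -0.000405 (without sh74 replicate 1). Slc7a11 with over-expression (0.00) was -0.00119 with array medians set equal. Without over-expression replicate 2 it was -0.37, and without vector control replicates 1 or 3 it was -0.49 or -0.34, in a range of -0.49 to 0.84. Mthfd2 with over-expression (-0.18) was 0.14 without over-expression replicate 3 or the libraries of low Esrp1, and 0.03 without vector control replicate 2, in a range of -0.40 to 0.14. In sh74 cells, without sh74 replicate 1, Mthfd2 was 0.19 (range -0.99 to 0.19) and Nupr1 0.25 (range -0.44 to 0.25). Nupr1 was also 0.01 without shScramble replicate 2 and 0.15 without the libraries of low Esrp1. The cause was not tested. By the methods' t-test 2 members were at an unadjusted p under 0.05 in sh75 cells, against 6 with limma. Where a group was left with 1 sample, that sample was assumed to vary like the other groups.

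With the title number as a replicate block, sh75 against shScramble could be fitted over the CNOT7 over-expression, sh75 and shScramble samples (4 residual degrees of freedom). There 14 of 32 members were lower with a median of 0.01, 3 were at an unadjusted p under 0.05, Cth changed by 1.04 (limma adjusted p = 0.561) and Slc1a4 by 0.75 (adjusted p = 0.551), and 0 probe sets were called. This fit also left out the vector control and sh74 samples, so its differences from the main values are not those of the block alone. No paired analysis was possible for the other comparisons because their groups share numbers with no linked control. The deviations of samples of the same number in different groups correlated with a median of 0.089 (13 pairs, between -0.32 and 0.61). For 65 other pairs the median was -0.098 (between -0.57 and 0.57). The deviations are taken from group means, so those of the 2 sh74 samples mirror each other and the pairs are not independent. The overlap of the ranges is therefore partly built in, and whether the numbers pair samples is not settled. Low Esrp1 fell largely in number 5: CNOT7 over-expression replicate 3, sh75 replicates 2 and 3 and shScramble replicate 3 carry it. Also of number 5 is CNOT7 over-expression replicate 2, with high Esrp1 (9.73). The remaining library of low Esrp1, sh74 replicate 1, carries number 1. Libraries of number 4 had high Esrp1 (10.56 to 11.01).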
